A study of Drosophila melanogaster with 8 samples.

Results

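The difference between 2 enrichments of somatic cyst cells of the Drosophila melanogaster testis was taken gene by gene. Each enrichment set cells sorted for GFP by fluorescence-activated cell sorting against the unsorted cell suspension of testes of the same cross. The difference was the tj-GAL4 enrichment (sorted minus unsorted, log2) minus the eya-GAL4 enrichment, so that a positive value means that the tj-GAL4 sort enriched a gene more, or depleted it less. It uses all 8 libraries of the series in 4 groups of 2: tj-GAL4 sorted, tj-GAL4 unsorted, eya-GAL4 sorted and eya-GAL4 unsorted. Both crosses carried UAS-GFP and differed in the driver, GAL4 placed under traffic jam (tj) or eyes absent (eya) control, so a GFP-positive cell is one in which that driver was or had been active. The labels treat the first sort as early and the second as mature cyst cells, and they give neither an age of the flies nor a count of testes or cells. The deposited table has 16018 genes, of which 12570 had enough reads to be tested with all 8 libraries and 12451 without the second tj-GAL4 unsorted library.

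Cyst cells are the somatic cells of the fly testis. A pair of them encloses each group of dividing germ cells, leaves the stem cell niche with it and stays around it through meiosis and sperm formation. Tj, a Maf-family transcription factor, marks the cyst stem cells and young cyst cells, and Eya, a transcriptional coactivator that works with Six-family proteins, becomes abundant as cyst cells mature. The testis is wrapped in a muscle sheath and a layer of pigment cells, and a suspension of dissected testes can also hold hemocytes, fat body, gut or accessory gland.

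The libraries held 10771009 to 25344721 reads assigned to genes. The 2 tj-GAL4 unsorted libraries stood apart from each other: 4833 genes differed between them by more than 2-fold, against 849 to 1400 between the replicates of the other groups. Replicate 2 had 31.7% of its reads on mitochondrially encoded genes, against 4.68% to 19.6% in the other libraries. A list of gut genes summed to 335 CPM (read counts scaled to a common library size by trimmed mean of M-values) in tj-GAL4 unsorted replicate 1 and to 6520 CPM in replicate 2, and to 68.1 to 543 CPM in the other libraries. The difference was therefore fitted with all 8 libraries and with the 7 that remain without tj-GAL4 unsorted replicate 2. Values of single genes that passed are first given with 7 libraries, and their values with 8 follow together further on. With 7 libraries the lone tj-GAL4 unsorted library was assumed to vary like the other groups.

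The gene tj (chromosome 2L, 19464267 to 19467758) had 45.4 and 28.9 CPM in tj-GAL4 sorted cells, against 1.52 and 1.96 CPM in tj-GAL4 unsorted cells. It had 19.9 and 14.9 CPM in eya-GAL4 sorted cells, against 2.55 and 1.64 CPM in eya-GAL4 unsorted cells. It was thus high in every sorted library and low in every unsorted one, with both tj-GAL4 sorted libraries above both eya-GAL4 sorted ones. The difference between the enrichments was 1.36 ± 0.55 (log2, SE) with all libraries and 1.56 with 7, and neither passed the threshold of an adjusted p of 0.05 (adjusted p = 0.33 and 0.29). The gene eya (chromosome 2L, 6527447 to 6546976) had 211 and 147 CPM in tj-GAL4 sorted cells, against 41 and 16.7 CPM in tj-GAL4 unsorted cells. It had 153 and 146 CPM in eya-GAL4 sorted cells, against 35.8 and 46.2 CPM in eya-GAL4 unsorted cells. The sorted libraries of both drivers overlapped, and the difference was 0.77 ± 0.61 (log2, SE) with all libraries and 0.28 with 7 (adjusted p = 0.51 and 0.8). In bulk samples such as these, fewer cells of a type and less RNA per cell cannot be told apart.

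Over all genes, no difference passed the threshold with 8 libraries, a share called of 0%, while 1841 genes had an unadjusted p under 0.05 in edgeR's quasi-likelihood test (388 positive and 1453 negative). With 7 libraries 64 genes passed, a share called of 0.514%, with an unadjusted p under 0.05 for 1482 genes. Of the 64, 13 were enriched more or depleted less by the tj-GAL4 sort, a share of 0.104%, and 51 were enriched less or depleted more, a share of 0.41%. The fitted differences of the 13 ran from 2.03 to 6.2 with a median of 2.76, and those of the 51 from -10.81 to -2.12 with a median of -3.39 (log2), the extremes resting on genes near 0 in a group. Across genes, the 2 enrichments had a Pearson correlation of 0.67 with 8 libraries and 0.85 with 7. This is given as a description over genes only, and the 2 enrichments have no library in common. They differed by more than 2-fold for 36.3% of genes with 8 libraries and for 19.8% with 7. For comparison, the eya-GAL4 enrichment alone called 6028 genes (48%) and the tj-GAL4 enrichment alone called 1428 genes (11.4%) with all libraries.

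**Figure D1:**
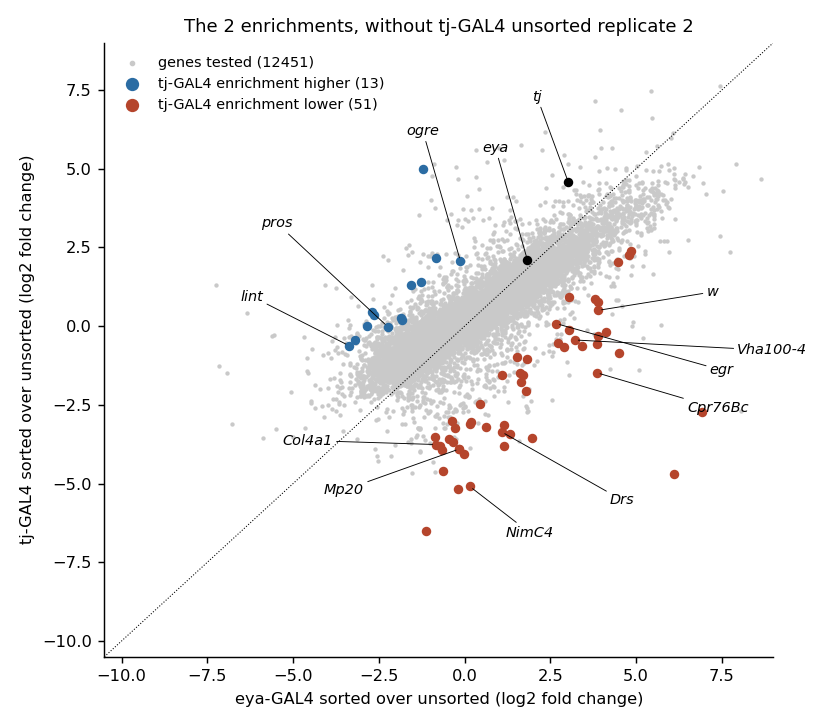
Enrichment by the tj-GAL4 sort (vertical axis) against enrichment by the eya-GAL4 sort (horizontal axis), both as log2 fold change of sorted over unsorted cells, for the 12451 genes tested without tj-GAL4 unsorted replicate 2. The 13 genes in blue lie above the dotted line of equality and the 51 in red below it, with tj and eya in black inside the main cloud.

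Of 22 muscle genes tested, the tj-GAL4 sort by itself lowered 17 and raised 1 with 7 libraries, where it lowered 10.8% and raised 25% of all genes. The eya-GAL4 sort lowered 8 and raised 3 of them, where it lowered 33.1% and raised 34.3% of all genes, so its share of lowered muscle genes was near that of all genes. The genes that passed were lower in tj-GAL4 sorted cells than in eya-GAL4 sorted cells. Mp20 (chromosome 2R, 13246670 to 13248880), a calponin-like muscle protein, had 2.02 and 1.2 CPM in tj-GAL4 sorted cells, against 22.8 and 43.7 CPM in tj-GAL4 unsorted cells. It had 17.2 and 16.3 CPM in eya-GAL4 sorted cells, against 12.4 and 23.9 CPM in eya-GAL4 unsorted cells. The tj-GAL4 sorted libraries stood below all the others, and the eya-GAL4 libraries overlapped. The difference was -3.75 ± 0.52 with 7 libraries (log2, SE, adjusted p = 0.0091) and passed in the same direction when tj-GAL4 unsorted replicate 2 was used in place of replicate 1 (-4.69). Mlc1, a myosin light chain, had 2.77 and 1.55 CPM in tj-GAL4 sorted cells, against 26.2 and 38.5 CPM in tj-GAL4 unsorted cells. It had 13.5 and 13 CPM in eya-GAL4 sorted cells, against 11.5 and 21.3 CPM in eya-GAL4 unsorted cells, which gave a difference of -3.33 (adjusted p = 0.017). TpnC73F, a troponin C that senses calcium in the sarcomere, had 3.82 and 3.99 CPM in tj-GAL4 sorted cells, against 10.8 and 16.6 CPM in tj-GAL4 unsorted cells. In the eya-GAL4 sort it went the other way, with 10.4 and 18.8 CPM in sorted cells against 3.42 and 6 CPM in unsorted cells, and its difference was -3.1 (adjusted p = 0.033).

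Of the 22 muscle genes tested, 5 passed, all negative, against 0.41% of all genes: Mp20, Mlc1, TpnC73F, its paralog TpnC47D (-4.27) and up, the troponin T gene (-2.64). TpnC47D and up were picked out after their values were seen. Other members also had a negative difference, among them Act57B with -2.7 and Mf with -2.47. Of the 22, 5 had a positive difference, where 7153 of all 12451 genes did. The list's median was -2.08 against 0.14 for all genes. With all 8 libraries that median was -2.18 and no member passed. The list was not uniform. Msp300, a giant nuclear anchoring protein, had a difference of 1.54, and the titin gene sls had one of 0.72, neither past the threshold. Msp300 and sls are among the most abundant members. The summed level of the list was 1780 and 1910 CPM in tj-GAL4 sorted cells against 4650 and 3720 CPM in tj-GAL4 unsorted cells, and 1630 and 1300 CPM in eya-GAL4 sorted cells against 4360 and 5340 CPM in eya-GAL4 unsorted cells, so both sorted groups were below both suspensions in the sum. Act88F and fln, which are specific to flight muscle, were at 0 to 0.667 CPM in every library and were not tested. The 2 troponin C genes are close paralogs, and no label or header used here tells how reads shared by such copies were counted.

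A small heat shock protein and a neural gene followed the same pattern. The gene l(2)efl, an alpha-crystallin-type chaperone, had 1.8 and 2.05 CPM in tj-GAL4 sorted cells, against 16.5 and 50.1 CPM in tj-GAL4 unsorted cells. It had 17 and 26.3 CPM in eya-GAL4 sorted cells, against 13.1 and 25.3 CPM in eya-GAL4 unsorted cells, for a difference of -3.26 (adjusted p = 0.017). Neurochondrin had 2.62 and 2.59 CPM in tj-GAL4 sorted cells, against 14.3 and 29.5 CPM in tj-GAL4 unsorted cells. It had 18.7 and 21.3 CPM in eya-GAL4 sorted cells, against 10.3 and 18.5 CPM in eya-GAL4 unsorted cells, for a difference of -2.92 (adjusted p = 0.017).

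**Figure D2:**
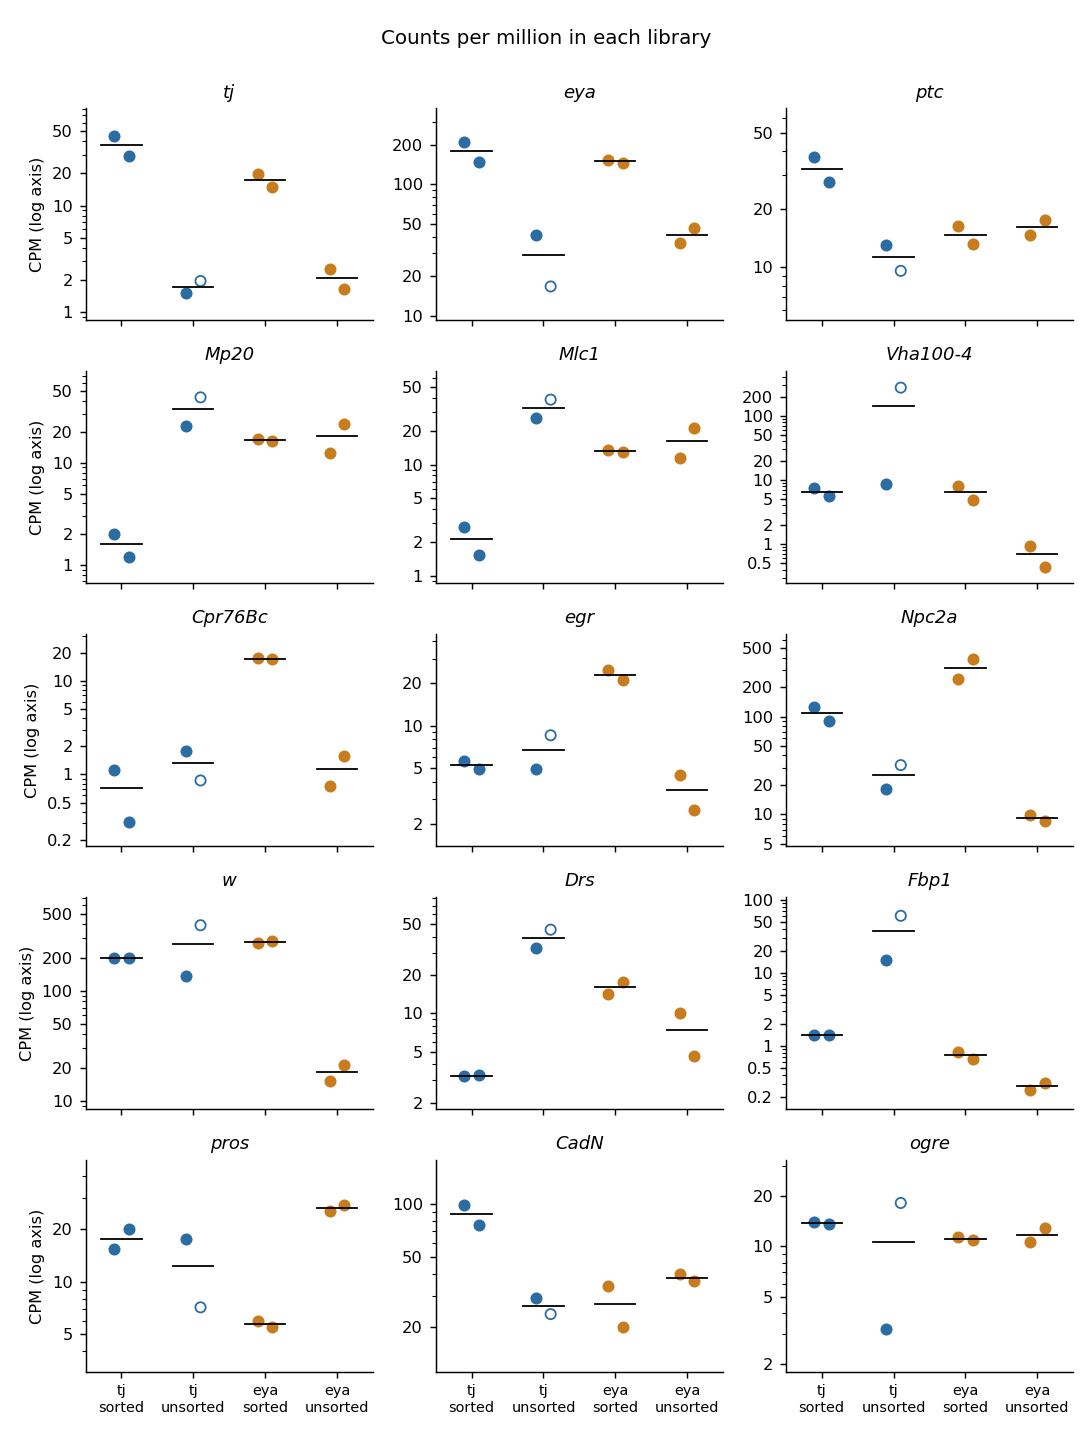
CPM on log axes for 15 genes in each library, tj-GAL4 in blue and eya-GAL4 in orange, with a bar at each group's mean and an open circle for tj-GAL4 unsorted replicate 2. Mp20 and Mlc1 are low in the tj-GAL4 sorted libraries, Cpr76Bc and egr are high in the eya-GAL4 sorted ones, and w is low in the eya-GAL4 unsorted ones, at 15.2 and 21.2 CPM.

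A second group of genes was high in eya-GAL4 sorted cells and low in the other 3 groups. Cpr76Bc (chromosome 3L, 19520945 to 19527272), a cuticle protein of the CPR family, had 1.12 and 0.31 CPM in tj-GAL4 sorted cells, against 1.78 and 0.863 CPM in tj-GAL4 unsorted cells. It had 17.6 and 17.2 CPM in eya-GAL4 sorted cells, against 0.747 and 1.56 CPM in eya-GAL4 unsorted cells, and the difference was -5.33 ± 0.78 (log2, SE, adjusted p = 0.013). The gene egr, which codes for Eiger, the fly ligand of the tumour necrosis factor family, had 5.61 and 4.96 CPM in tj-GAL4 sorted cells, against 4.91 and 8.56 CPM in tj-GAL4 unsorted cells. It had 24.8 and 21.2 CPM in eya-GAL4 sorted cells, against 4.48 and 2.53 CPM in eya-GAL4 unsorted cells, for a difference of -2.6 (adjusted p = 0.048). The eya-GAL4 sort thus enriched both genes, while tj-GAL4 sorted and unsorted libraries overlapped.

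The gene dnd had 4.34 and 3.02 CPM in tj-GAL4 sorted cells, against 5.24 and 6.36 CPM in tj-GAL4 unsorted cells. It had 11.5 and 9.82 CPM in eya-GAL4 sorted cells, against 1.56 and 1.6 CPM in eya-GAL4 unsorted cells (difference -3.25, adjusted p = 0.021). For dnd, tj-GAL4 minus eya-GAL4 was -1.58 between the sorted cells and 1.67 between the suspensions, so it followed the pattern only in part. Genes picked out after their values were seen extended the group of Cpr76Bc and egr. The gene mira, whose protein carries Prospero to 1 daughter of a dividing neural stem cell, had 9.92 and 11.3 CPM in eya-GAL4 sorted cells and 0.356 to 2.04 CPM in the other 6 libraries (difference -4.3). Teh1, an accessory subunit of sodium channels, had 13.3 and 13.4 CPM in eya-GAL4 sorted cells and 1.27 to 4.63 CPM elsewhere (difference -3.15). CG15674 had the smallest adjusted p of all genes (0.0018, difference -5.37), with 2.47 and 1.78 CPM in tj-GAL4 sorted cells, 3.72 and 2.83 CPM in tj-GAL4 unsorted cells, 43.5 and 58.9 CPM in eya-GAL4 sorted cells, and 2.68 and 1.73 CPM in eya-GAL4 unsorted cells. Nothing in the sources used here says what CG15674 does.

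Other differences lay mainly between the 2 unsorted suspensions. The gene w (white; chromosome X, 2790599 to 2796466) codes for a transporter of eye pigment precursors and serves as a visible marker in many fly transgenes. It had 197 and 196 CPM in tj-GAL4 sorted cells, against 136 and 393 CPM in tj-GAL4 unsorted cells. It had 269 and 285 CPM in eya-GAL4 sorted cells, against 15.2 and 21.2 CPM in eya-GAL4 unsorted cells. The sorted libraries and the tj-GAL4 suspensions were thus at 136 CPM or more, and the eya-GAL4 suspensions stood alone at 21.2 CPM or less. The difference was -3.39 ± 0.42 (log2, SE, adjusted p = 0.0053), and tj-GAL4 minus eya-GAL4 was -0.54 between the sorted cells and 2.85 between the suspensions. Of the 9 pigment cell genes tested, w alone passed, where 0.41% of all genes passed as negative. Pu, a GTP cyclohydrolase of pteridine pigment synthesis, had the same difference of -3.39 without passing (adjusted p = 0.071).

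Fbp1, a fat body receptor for storage proteins, had 1.42 and 1.43 CPM in tj-GAL4 sorted cells, against 15.1 and 60.7 CPM in tj-GAL4 unsorted cells. It had 0.827 and 0.667 CPM in eya-GAL4 sorted cells, against 0.249 and 0.311 CPM in eya-GAL4 unsorted cells, for a difference of -4.75 (adjusted p = 0.013). Only the tj-GAL4 suspension held Fbp1 above 1.43 CPM. It was the 1 of 14 fat body genes that passed, where 0.41% of all genes passed as negative. The list's median was -0.87 with 7 libraries and -2.72 with 8. The summed level of the list was 2920 and 1930 CPM in tj-GAL4 sorted cells against 368 and 1070 CPM in tj-GAL4 unsorted cells. It was 3800 and 3750 CPM in eya-GAL4 sorted cells against 317 and 239 CPM in eya-GAL4 unsorted cells. The sorted cells of both drivers were thus above their suspensions in the sum over this list. By gene the list was mixed: with 7 libraries the tj-GAL4 sort lowered 6 and raised 5 of the 14, where it lowered 10.8% and raised 25% of all genes. The eya-GAL4 sort lowered 3 and raised 6, where it lowered 33.1% and raised 34.3% of all genes. Vha100-4, an isoform of the a subunit of the proton-pumping V-ATPase, had 7.48 and 5.54 CPM in tj-GAL4 sorted cells, against 8.63 and 276 CPM in tj-GAL4 unsorted cells. It had 8.17 and 4.85 CPM in eya-GAL4 sorted cells, against 0.933 and 0.445 CPM in eya-GAL4 unsorted cells (difference -3.64, adjusted p = 0.034). The sorted cells of both drivers overlapped, and tj-GAL4 unsorted replicate 2 was far above every other library.

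Both collagen IV chains and NimC4 passed with tj-GAL4 unsorted replicate 1 and not with replicate 2 in its place. Col4a1, a collagen IV chain that fly hemocytes and fat body secrete, had 24.2 and 19.5 CPM in tj-GAL4 sorted cells, against 289 and 52.7 CPM in tj-GAL4 unsorted cells. It had 76.9 and 65.6 CPM in eya-GAL4 sorted cells, against 154 and 89.6 CPM in eya-GAL4 unsorted cells. With 7 libraries both sorts lowered it (-3.76 by tj-GAL4 and -0.83 by eya-GAL4, log2), and the difference was -2.93 with replicate 1 (adjusted p = 0.021) and -0.5 with replicate 2 in its place (adjusted p = 0.44). The other collagen IV chain, vkg, had a difference of -3.09 with replicate 1 (adjusted p = 0.013) and -0.89 with replicate 2 (adjusted p = 0.15). NimC4, an engulfment receptor for dying cells, had 0.748 and 1.28 CPM in tj-GAL4 sorted cells, against 35.4 and 3.3 CPM in tj-GAL4 unsorted cells. It had 8.06 and 12.6 CPM in eya-GAL4 sorted cells, against 12.5 and 5.74 CPM in eya-GAL4 unsorted cells, and its difference was -5.23 with replicate 1 (adjusted p = 0.0053) and -1.84 with replicate 2 (adjusted p = 0.053). Of 11 hemocyte genes tested, Col4a1 passed (0.41% of all genes passed as negative) and 7 more were negative at an unadjusted p under 0.05, a level that 6.66% of all genes reached as negative. With all 8 libraries, 3 hemocyte genes were negative and 1 positive at that level, and none passed. The list summed to 264 and 201 CPM in tj-GAL4 sorted cells against 530 and 164 CPM in tj-GAL4 unsorted cells, and to 382 and 355 CPM in eya-GAL4 sorted cells against 300 and 197 CPM in eya-GAL4 unsorted cells. He and lz were not tested for want of reads. Of 22 integrin and basement membrane genes, the 2 collagen chains alone passed, and the list's median was -0.11.

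Drs and lectin-28C fell in the tj-GAL4 sort, with log2 changes of -3.36 and -3.9. Drs (chromosome 3L, 3369556 to 3369942), which codes for the antifungal peptide drosomycin, had 3.22 and 3.29 CPM in tj-GAL4 sorted cells, against 32.9 and 45.4 CPM in tj-GAL4 unsorted cells. It had 14.3 and 17.8 CPM in eya-GAL4 sorted cells, against 10.1 and 4.67 CPM in eya-GAL4 unsorted cells. The sorted cells were thus below their suspension for tj-GAL4 and above it for eya-GAL4, with a difference of -4.45 ± 0.55 (log2, SE, adjusted p = 0.0053) and of -4.93 with replicate 2 in place of replicate 1. The C-type lectin gene lectin-28C had 1.2 and 0.968 CPM in tj-GAL4 sorted cells, against 15.7 and 13.8 CPM in tj-GAL4 unsorted cells. It had 2.79 and 2.73 CPM in eya-GAL4 sorted cells, against 3.73 and 2.22 CPM in eya-GAL4 unsorted cells (difference -3.75, adjusted p = 0.02). For lectin-28C the tj-GAL4 suspension was the group that stood out, at 13.8 CPM or more in both libraries.

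The gene l(2)34Fc had 3.22 and 2.56 CPM in tj-GAL4 sorted cells, against 9.63 and 10.3 CPM in tj-GAL4 unsorted cells. It had 7.03 and 9.22 CPM in eya-GAL4 sorted cells, against 2.36 and 2.76 CPM in eya-GAL4 unsorted cells, so the 2 sorts moved it in opposite directions (difference -3.4, adjusted p = 0.016). NtR, a member of the ligand-gated ion channel family, had a difference of -3.26 (adjusted p = 0.038) that was -0.49 with replicate 2 in place of replicate 1 (adjusted p = 0.61). Its level in tj-GAL4 unsorted cells was 20.4 CPM in replicate 1 and 2.98 CPM in replicate 2.

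Few genes were favoured by the tj-GAL4 sort. Prospero (pros; chromosome 3R, 11328480 to 11407627), a homeodomain transcription factor of differentiating neurons, had 15.3 and 19.9 CPM in tj-GAL4 sorted cells, against 17.5 and 7.14 CPM in tj-GAL4 unsorted cells. It had 6 and 5.52 CPM in eya-GAL4 sorted cells, against 25.4 and 27.4 CPM in eya-GAL4 unsorted cells. The eya-GAL4 sort depleted it, and the tj-GAL4 sorted libraries lay within or above the range of their suspension. The difference was 2.22 ± 0.4 with 7 libraries (log2, SE, adjusted p = 0.035) and 3.51 with replicate 2 in place of replicate 1. The gene lint had 4.42 and 3.21 CPM in tj-GAL4 sorted cells, against 5.69 and 0.471 CPM in tj-GAL4 unsorted cells. It had 2.79 and 2.73 CPM in eya-GAL4 sorted cells, against 26.6 and 29.2 CPM in eya-GAL4 unsorted cells, so the eya-GAL4 suspension alone was high (difference 2.76, adjusted p = 0.022).

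The innexin gene ogre, a gap junction subunit, had 14 and 13.5 CPM in tj-GAL4 sorted cells, against 3.23 and 18.1 CPM in tj-GAL4 unsorted cells. It had 11.3 and 10.9 CPM in eya-GAL4 sorted cells, against 10.6 and 12.8 CPM in eya-GAL4 unsorted cells. Its difference of 2.18 (adjusted p = 0.048) rested on tj-GAL4 unsorted replicate 1 and was -0.31 with replicate 2 in its place (adjusted p = 0.59). The long noncoding RNA lncRNA:CR45113 likewise had 2.66 with replicate 1 (adjusted p = 0.048) and -0.5 with replicate 2 (adjusted p = 0.44). Of 19 adherens and gap junction genes, ogre alone passed, where 0.104% of all genes passed as positive. Overlap of a noncoding gene with its neighbours was not resolved, since no label or header used here tells the strand setting of the counting.

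Most seminal fluid genes leaned to the tj-GAL4 sort without passing, where 7153 of all 12451 genes had a positive difference with 7 libraries. Of 18 accessory gland genes tested, 17 had a positive difference with 7 libraries, 14 of them at an unadjusted p under 0.05, against 653 of 12451 for all genes (5.24%), and the list's median was 1.17. None of these passed the threshold, the nearest being Acp26Ab with 2.12 (adjusted p = 0.06). Acp26Ab had 18.1 and 13.5 CPM in tj-GAL4 sorted cells, against 13.8 and 54.6 CPM in tj-GAL4 unsorted cells, and 10.9 and 13.6 CPM in eya-GAL4 sorted cells, against 47.4 and 45.1 CPM in eya-GAL4 unsorted cells. The level of the list in tj-GAL4 unsorted cells was 1430 CPM in replicate 1 and 4150 CPM in replicate 2, against 3460 and 4880 CPM in eya-GAL4 unsorted cells, and with all 8 libraries the list's median was 0. The 1 member that passed, Acp24A4, went the other way, where 0.41% of all genes passed as negative. Acp24A4 had 2.02 and 1.82 CPM in tj-GAL4 sorted cells, against 17.6 and 4.16 CPM in tj-GAL4 unsorted cells. It had 9.2 and 19 CPM in eya-GAL4 sorted cells, against 12.5 and 21.9 CPM in eya-GAL4 unsorted cells (difference -2.94, adjusted p = 0.048). With replicate 2 in place of replicate 1 the difference of Acp24A4 was -0.85 (adjusted p = 0.31).

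The difference of the enrichments is also the difference between the sorted cells minus the difference between the suspensions, and the 64 genes were split on that basis. The split was not counted over all genes tested, so its counts describe the 64 genes only. Of the 51 negative genes, 36 had the larger part between tj-GAL4 sorted and eya-GAL4 sorted cells and 15 between the suspensions. Of the 13 positive genes, pros was the 1 whose larger part lay between the sorted cells (1.57 against -0.65 between the suspensions), and 12 had the larger part between the suspensions. Among the 51, the tj-GAL4 sort by itself lowered 33 and raised 5 past the threshold, where it lowered 10.8% and raised 25% of all genes. The eya-GAL4 sort by itself raised 31 of the 51 and lowered 3, where it raised 34.3% and lowered 33.1% of all genes. These shares are given as background only, since the 51 were called on the same contrasts. Among the 13, the tj-GAL4 sort raised 5 and the eya-GAL4 sort lowered 11. Of the 64, 26 have a CG or CR number as their symbol, not counting lncRNA:CR45113, and the share of such symbols over all genes was not counted.

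**Figure D3:**
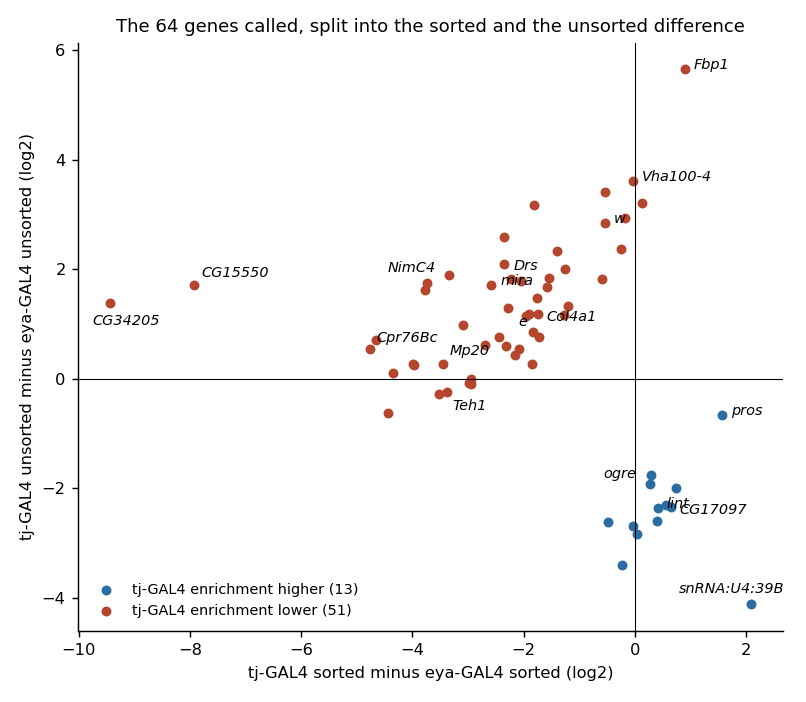
For the 64 genes called without tj-GAL4 unsorted replicate 2, the log2 difference of tj-GAL4 minus eya-GAL4 among sorted cells (horizontal axis) and among unsorted suspensions (vertical axis). Genes with a negative difference (red, 51) lie mostly at the left, and those with a positive one (blue, 13) at the bottom, where only pros lies farther from 0 on the horizontal axis than on the vertical one.

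Each of the 64 genes was then read with tj-GAL4 unsorted replicate 2 in place of replicate 1, in a fit that shares the other 6 libraries. That fit tested 12460 genes. Passing again in it is a description only, since the 2 fits are not independent and the share of all genes that kept their direction was not counted. All 51 negative genes kept their direction and 42 passed again. Of the 13 positive genes 8 kept their direction and 6 passed again: pros, lint, CG15635, CG17097, CG31872 and CG43707. Those that did not pass again in the same direction included Col4a1, vkg, NimC4, NtR, Acp24A4, ogre and lncRNA:CR45113. CG43788 went from 2.99 to -1.33, past the threshold in the opposite direction. Among the named genes within the 64, Vha100-4 moved most between these 2 fits, with -3.64 and -8.67. The fit with replicate 2 alone called 4195 genes in all (1652 positive and 2543 negative).

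**Figure D4:**
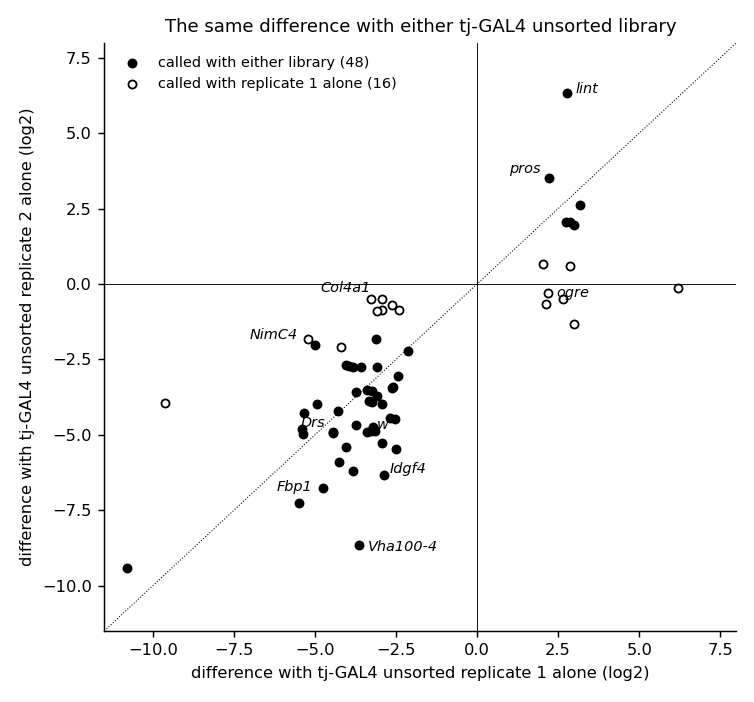
The difference of the 2 enrichments (log2) for the 64 genes with tj-GAL4 unsorted replicate 1 alone (horizontal axis) and with replicate 2 alone (vertical axis). Circles are filled where both fits passed the threshold in the same direction and open elsewhere. CG43788, which passed in opposite directions, is among the open ones. The 51 negative genes stay below 0 on both axes, while ogre and lncRNA:CR45113 cross from above 0 to below it.

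With all 8 libraries none of the 23 named genes among the 64 passed. Mp20, w, Drs, Fbp1, lectin-28C, l(2)34Fc and dnd then had differences of -4.27, -4.35, -4.71, -6.08, -3.67, -3.45 and -3.41, each with an adjusted p of 0.19. Mlc1 had -3.61 (adjusted p = 0.24), Neurochondrin -3.53 (0.25), TpnC73F -3.44 (0.29), l(2)efl -4.27 (0.31), Cpr76Bc -4.9 (0.31) and egr -3.06 (0.32). NimC4 had -4.4, Vha100-4 -7.7, vkg -2.39, Acp24A4 -2.24, lint 3.59 and pros 2.71, each with an adjusted p of 0.33, and Col4a1 had -2.2 (0.34) and NtR -2.5 (0.35). The smallest were lncRNA:CR45113 with 0.37 (0.87) and ogre with 0.46 (0.8). All 23 thus kept their sign, and for Vha100-4 the value with 8 libraries was farther from 0 than with 7.

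With all 8 libraries, the genes of smallest p under the naming rule are given as values that missed the threshold. On the tj-GAL4 side, CadN, the N-cadherin gene, had 99.5 and 76.3 CPM in tj-GAL4 sorted cells, against 29.2 and 23.6 CPM in tj-GAL4 unsorted cells. It had 34.2 and 19.9 CPM in eya-GAL4 sorted cells, against 39.9 and 36.4 CPM in eya-GAL4 unsorted cells, so the tj-GAL4 sorted libraries stood above all others (difference 2.23 ± 0.5, log2, SE, adjusted p = 0.33, and 2.12 with 7 libraries). Patched (ptc), the Hedgehog receptor and itself a target of that pathway, had 37.2 and 27.8 CPM in tj-GAL4 sorted cells, against 13.1 and 9.58 CPM in tj-GAL4 unsorted cells. It had 16.3 and 13.2 CPM in eya-GAL4 sorted cells, against 14.7 and 17.6 CPM in eya-GAL4 unsorted cells (difference 1.65 ± 0.46, adjusted p = 0.33, and 1.46 with 7 libraries). Both genes were thus near the level of their suspension in the eya-GAL4 sort and above it in the tj-GAL4 sort. Ten-a, a teneurin of synaptic partner matching, had 22 and 14.6 CPM in tj-GAL4 sorted cells, against 4.24 and 3.61 CPM in tj-GAL4 unsorted cells, and 15.2 to 16.5 CPM in all 4 eya-GAL4 libraries (difference 2.22, adjusted p = 0.33).

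Other genes on this side were lower in eya-GAL4 sorted cells than in their suspension. The gene brp, known for the presynaptic active zone, had 37.3 and 45.6 CPM in tj-GAL4 sorted cells, against 67.1 and 31 CPM in tj-GAL4 unsorted cells, and 19.9 and 12.7 CPM in eya-GAL4 sorted cells, against 89.8 and 82.5 CPM in eya-GAL4 unsorted cells (difference 2.16). The Pax gene prd had 11.1 and 16.6 CPM in tj-GAL4 sorted cells, against 31.2 and 23.2 CPM in tj-GAL4 unsorted cells, and 4.96 and 4 CPM in eya-GAL4 sorted cells, against 30.6 and 27.6 CPM in eya-GAL4 unsorted cells (difference 1.73). The POU gene pdm3 had a difference of 1.83 and the condensin subunit gene SMC2 one of 1.72. The remaining 4 genes on this side, lncRNA:CR43893, l(2)k09022, plx and the neuroligin gene Nlg3, had 2.61, 2.06, 1.72 and 1.8, and the adjusted p of all 12 genes on this side, pros included, was 0.33.

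On the eya-GAL4 side, Npc2a, a sterol carrier of the Niemann-Pick type, had 126 and 89.2 CPM in tj-GAL4 sorted cells, against 18.2 and 31.9 CPM in tj-GAL4 unsorted cells. It had 242 and 386 CPM in eya-GAL4 sorted cells, against 9.95 and 8.58 CPM in eya-GAL4 unsorted cells, so both sorts were far above their suspensions and the eya-GAL4 one farther (difference -2.97 ± 0.57, log2, SE, adjusted p = 0.31, and -2.51 with 7 libraries, not called). Zip42C.1, a zinc transporter of the ZIP family, had 0.15 and 0.0387 CPM in tj-GAL4 sorted cells, against 0.0744 and 0.706 CPM in tj-GAL4 unsorted cells. It had 17.2 and 25.8 CPM in eya-GAL4 sorted cells, against 0.436 and 0.356 CPM in eya-GAL4 unsorted cells (difference -7.71 ± 1.36, adjusted p = 0.25, and -5.69 with 7 libraries, not called). Zip42C.1 was thus near 0 outside the eya-GAL4 sorted cells, where few reads set its fold change. The other 10 genes on this side, among them Drs, Mp20, w, Fbp1 and Mlc1, have been described above with 7 libraries.

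No marker of cyst stage passed the threshold. Of 15 early cyst markers and 12 mature ones, none passed with either set of libraries. At an unadjusted p under 0.05, 4 early markers were positive and 0 negative with 7 libraries, against 5.24% and 6.66% of all genes, and 4 were positive and 2 negative with 8, against 3.09% and 11.6%. Of the mature markers 1 was positive and 0 negative with 7 libraries, and 1 was positive and 3 negative with 8. The early list had a median difference of 0.55 with 7 libraries and 0.73 with 8, and the mature list one of -0.17 and -0.81, against 0.14 and -0.03 for all genes. With 7 libraries, the early list had a median change of 2.15 in the tj-GAL4 sort and 1.93 in the eya-GAL4 sort (log2). The mature list had 1.46 and 1.84, against -0.01 and -0.13 for all genes. With 8 libraries, tj-GAL4 raised 7 early markers and raised 3 and lowered 3 mature ones (8.98% and 2.38% of all genes), and eya-GAL4 raised 9 and lowered 1 early and raised 8 and lowered 4 mature ones (28% and 20% of all genes). The gene chinmo, which keeps cyst stem cells male, had 163 and 121 CPM in tj-GAL4 sorted cells, against 218 and 70.3 CPM in tj-GAL4 unsorted cells. It had 65.2 and 62.5 CPM in eya-GAL4 sorted cells, against 235 and 240 CPM in eya-GAL4 unsorted cells, with a difference of 1.88 ± 0.69 with 8 libraries and 1.3 with 7 (adjusted p = 0.33 and 0.26). The repressor gene zfh1, needed for cyst stem cell self-renewal, had 59.9 and 41.8 CPM in tj-GAL4 sorted cells, against 45.5 and 19.9 CPM in tj-GAL4 unsorted cells. It had 18.3 and 16.3 CPM in eya-GAL4 sorted cells, against 31.5 and 31.2 CPM in eya-GAL4 unsorted cells (difference 1.49 and 1.04, adjusted p = 0.33 and 0.36). For both genes the eya-GAL4 sorted cells were below their suspension, and the tj-GAL4 sorted libraries overlapped theirs.

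The Six-family gene Six4 had 76 and 50.1 CPM in tj-GAL4 sorted cells, against 5.47 and 4.08 CPM in tj-GAL4 unsorted cells. It had 75.6 and 78 CPM in eya-GAL4 sorted cells, against 3.42 and 3.56 CPM in eya-GAL4 unsorted cells, and the difference was -0.74 with 8 libraries and -0.91 with 7 (adjusted p = 0.42 and 0.44). The ligand gene hh had 56.8 and 35.1 CPM in tj-GAL4 sorted cells, against 8.55 and 10.3 CPM in tj-GAL4 unsorted cells. It had 54.4 and 59.6 CPM in eya-GAL4 sorted cells, against 3.8 and 4.05 CPM in eya-GAL4 unsorted cells (difference -1.57 and -1.42, adjusted p = 0.33 and 0.23). The mature list also holds na, a sodium leak channel gene, which had 31.1 and 48.1 CPM in tj-GAL4 sorted cells, against 76.8 and 30.8 CPM in tj-GAL4 unsorted cells. It had 1.03 and 1.7 CPM in eya-GAL4 sorted cells, against 7.59 and 9.6 CPM in eya-GAL4 unsorted cells, so the tj-GAL4 cross was higher in both kinds of sample and the difference of the enrichments was 2.18 with 8 libraries and 1.65 with 7, not past the threshold.

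The early germline and spermatocyte lists leaned to the tj-GAL4 sort, again without a call. Of 21 early germline genes 19 had a positive difference with 7 libraries and 20 with 8, with medians of 0.71 and 1.03. Of all genes, 7153 of 12451 were positive with 7 libraries and 6141 of 12570 with 8, with medians of 0.14 and -0.03. All 23 spermatocyte genes were positive in both, with medians of 0.7 and 1.06. The spermatid list was near all genes, with medians of 0.28 with 7 libraries and -0.04 with 8. Of its 31 genes, 27 were positive with 7 libraries and 14 with 8. The Y-linked sperm dynein gene kl-2 had 14.1 and 33.3 CPM in tj-GAL4 sorted cells, against 122 and 43.2 CPM in tj-GAL4 unsorted cells. It had 6.93 and 4.37 CPM in eya-GAL4 sorted cells, against 107 and 133 CPM in eya-GAL4 unsorted cells (difference 2.62 with 8 libraries and 2.08 with 7, adjusted p = 0.33 and 0.17). The spermatocyte list summed to 1140 and 1720 CPM in tj-GAL4 sorted cells, against 3280 and 1270 CPM in tj-GAL4 unsorted cells, and to 915 and 696 CPM in eya-GAL4 sorted cells, against 2870 and 3340 CPM in eya-GAL4 unsorted cells. The summed spermatocyte level was thus lower in both sorts than in 3 of the 4 suspensions, tj-GAL4 unsorted replicate 2 being the exception.

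Signalling pathways gave no call. None of the 18 JAK-STAT, 23 EGFR, 18 Hedgehog, 26 BMP and TGF-beta, 20 Notch, 24 Wnt, 22 ecdysone, or 24 insulin and TOR genes tested passed with either set. Their medians with 7 libraries lay between 0.12 and 0.29, close to the 0.14 of all genes, and those of JAK-STAT and of insulin and TOR changed sign under relative log expression scaling, which moved the median of all genes by -0.15. Of the junction lists, the 30 septate junction genes had a median of -0.29 with 7 libraries and -1.47 with 8, and none passed. Housekeeping lists leaned to the eya-GAL4 sort: the 87 cytoplasmic ribosomal protein genes had a median of -0.74 with 7 libraries and -1.92 with 8, the 80 nuclear respiratory chain genes -0.61 and -1.01, and none of either list passed. With 7 libraries the eya-GAL4 sort raised the ribosomal list by a median of 2.81 and the tj-GAL4 sort by 2.05 (log2), with 80 of 87 genes raised past the threshold in each. The mitochondrially encoded genes had a median of -1.51 over 15 genes with 7 libraries and -2.61 over 16 with 8. Of the 32 V-ATPase genes Vha100-4 alone passed and of the 21 immediate early and stress genes egr alone, with medians of -0.34 and -0.05 with 7 libraries. Both were negative, where 0.41% of all genes passed as negative. None passed of 9 hub, 31 spermatid, 7 neuron, 37 endocytosis and lysosome, 39 DNA replication, 22 somatic piRNA, 19 heat shock, 33 proteasome and 29 gut genes, whose medians with 7 libraries lay between -0.38 (proteasome) and 0.85 (neuron). The heat shock list does not hold the small heat shock protein gene l(2)efl, which passed. The gut list moved far between the sets, with -0.32 and -2.38, beside its level of 6520 CPM in tj-GAL4 unsorted replicate 2.

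**Figure D5:**
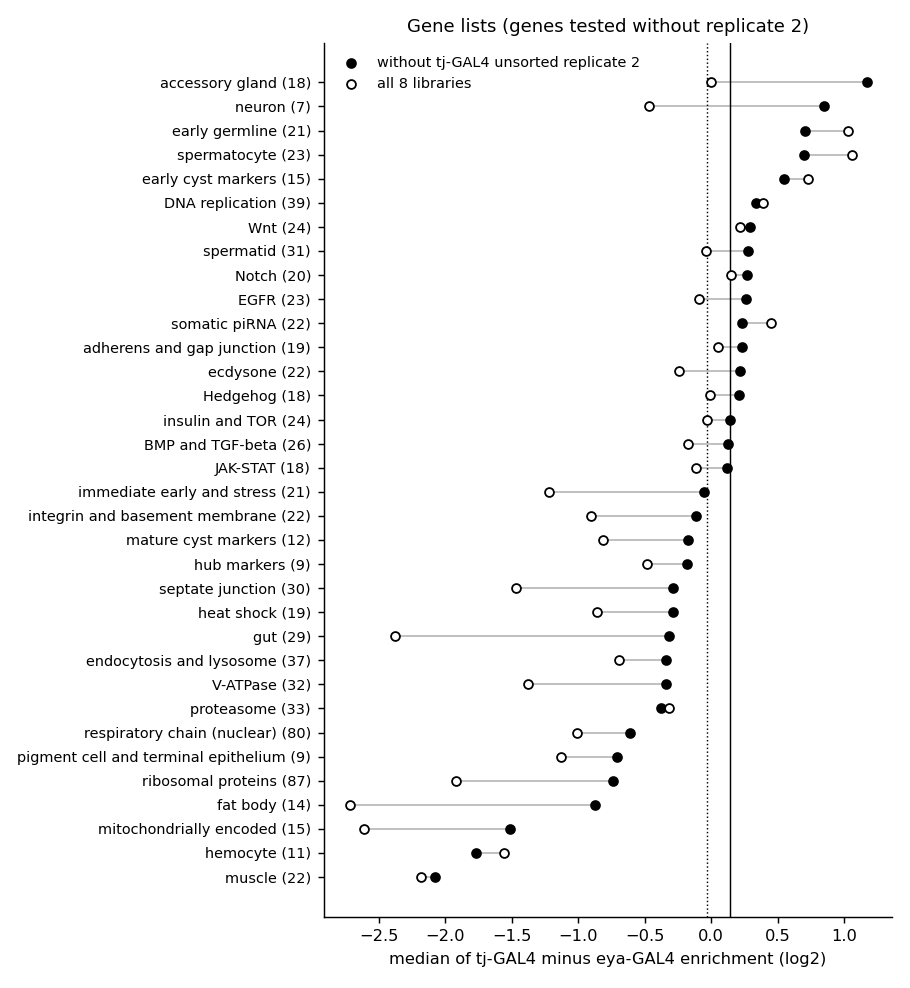
Median difference of the 2 enrichments (log2, tj-GAL4 minus eya-GAL4) for 34 gene lists, filled without tj-GAL4 unsorted replicate 2 and open with all 8 libraries, with the number of genes tested in brackets. The vertical lines mark the medians of all genes, 0.14 (solid, 7 libraries) and -0.03 (dotted, 8 libraries); muscle is at -2.08 and -2.18, while gut, fat body and ribosomal genes shift with the library left out.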

How the data were processed

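Poly(A)+ RNA of sorted and unsorted testis cells was sequenced from directional libraries, per the labels' protocols. Reads were aligned with Bowtie 1.2.2 and processed with FastQC, HTSeq and DESeq2 on dm6, per the submitters' processing notes; no label or header gives the annotation release or strand setting. Per the file headers, the authors deposited raw counts per gene and RPM values; the counts were tested, and the RPM values served to recover library totals (30669063 to 38507084). Names matched the Ensembl annotation for 15962 of 16018 genes.

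Genes with at least 1 CPM in 2 libraries entered edgeR 4.0.16 (trimmed mean of M-values scaling, 4 groups, quasi-likelihood test, Benjamini-Hochberg adjustment over all genes, threshold 0.05). CPM values use the same scaling, and errors are SE of the log2 difference. The eya-GAL4 unsorted columns are numbered 3 and 4 in the headers and 1 and 2 in the sample titles, so they were mapped to their group only. The labels call the replicates biological without naming animals, so p-values measure the spread between these libraries. The scripts were tested on simulated data with the same spread in every library, which does not mimic the spread between the tj-GAL4 suspensions.

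Named genes are tj and eya, up to 12 (8 libraries) or 10 (7 libraries) per direction by size among calls, or by p where fewer passed, with a mean of at least 5 CPM, a symbol other than a CG or CR number and no overlap between the enrichments, and the 2 members of smallest p in each of 34 lists. Genes and lists were chosen with earlier results of these data known. Alternatives were DESeq2 1.42.0, limma 3.58.1, other scalings and filters, and leaving out each library.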

Additional observations from a re-analysis of the deposited data

Results flagged for a closer look

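The tests of the difference between the enrichments, without tj-GAL4 unsorted replicate 2, set apart 23 named genes because the tj-GAL4 and eya-GAL4 effects differed. On the log2 scale the negative ones were Cpr76Bc (-5.33), NimC4 (-5.23), Fbp1 (-4.75), Drs (-4.45), Mp20 (-3.75), lectin-28C (-3.75), Vha100-4 (-3.64), l(2)34Fc (-3.4), w (-3.39), Mlc1 (-3.33), NtR (-3.26), l(2)efl (-3.26), dnd (-3.25), TpnC73F (-3.1), vkg (-3.09), Acp24A4 (-2.94), Col4a1 (-2.93), Neurochondrin (-2.92) and egr (-2.6). The positive ones were lint (2.76), lncRNA:CR45113 (2.66), pros (2.22) and ogre (2.18). With replicate 2 in place of replicate 1, the differences of Acp24A4, Col4a1, NimC4, NtR, vkg, ogre and lncRNA:CR45113 no longer passed.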

How the results depend on the processing

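Which libraries entered decided the number of calls. With 8 libraries, edgeR called 0 genes, DESeq2 329 (11 positive and 318 negative), the library totals behind the RPM values 49 (0 and 49) and no filter on low counts 1. Limma-trend, relative log expression scaling, a minimum of 5 CPM, leaving out mitochondrially encoded genes and voom quality weights (added after the data were seen) called 0. Leaving out 1 library at a time gave 0 to 4195 calls, above 0 only without tj-GAL4 unsorted replicate 1 (4195) or replicate 2 (64).

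With 7 libraries, against 64 calls, DESeq2 gave 224, limma-trend 36, relative log expression scaling 136, RPM totals 2 (0 positive and 2 negative), no filter 287 (82 and 205) and quality weights 24. Leaving out 1 further library gave 0 to 344: 0 without tj-GAL4 sorted replicate 1, eya-GAL4 sorted replicate 1 or eya-GAL4 sorted replicate 2, 126 without tj-GAL4 sorted replicate 2, 344 and 205 without the third and the fourth eya-GAL4 suspension. Each of the 64 calls was kept in 3 of these 6 fits. A fit without tj-GAL4 unsorted replicate 1 could not be had here, since no such library would remain. The cause of these moves was not tested. RPM totals moved the median of all genes by 0.55 with 8 libraries.

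The tj-GAL4 enrichment called 2530 genes with DESeq2, 533 with RPM totals, 399 with quality weights and 277 to 4462 without 1 library. The eya-GAL4 enrichment called 2312 with RPM totals, 9070 with quality weights and 1379 to 8399 without 1 library.

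Among the alternatives run within each set of libraries, 1 of the named genes' values reversed. The gene eya, not called at 0.28, was -0.04 without tj-GAL4 sorted replicate 1. Over the fits that leave out 1 library, eya ranged up to 0.5. For values with 7 libraries, these alternatives held no fit with tj-GAL4 unsorted replicate 2 in place of replicate 1. In that fit ogre went from 2.18 to -0.31 and lncRNA:CR45113 from 2.66 to -0.5. Titles number the replicates 1 and 2 in every group, but the eya-GAL4 suspension columns carry 3 and 4, so pairing could be checked for tj-GAL4 alone. Its replicate deviations had a correlation of -0.34, and the tj-GAL4 samples share only a number: the replicate block gave 0 calls of the difference, 1190 of the tj-GAL4 and 5857 of the eya-GAL4 enrichment. The crossed block (added after the data were seen) gave 1, 2637 and 7447.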

Other observations

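Genes with a CG or CR number as their symbol made up 26 of the 64 calls, a share not set against all genes. Those given here were chosen after their values were seen. CG34205 had a fitted difference of -10.81, whose size depends on a tj-GAL4 sorted group at or near 0 and is not exact, with 0 and 0.0387 CPM in tj-GAL4 sorted cells, 0.818 and 0.314 CPM in tj-GAL4 unsorted cells, 11 and 31.2 CPM in eya-GAL4 sorted cells, and 0.56 and 0.0889 CPM in eya-GAL4 unsorted cells. CG6409 was the most abundant of those high in eya-GAL4 sorted cells, with 116 and 77.4 CPM in tj-GAL4 sorted cells, 148 and 366 CPM in tj-GAL4 unsorted cells, 641 and 948 CPM in eya-GAL4 sorted cells, and 86.6 and 57 CPM in eya-GAL4 unsorted cells (difference -4.06). CG17097 was highest in the eya-GAL4 suspension, with 330 and 267 CPM in tj-GAL4 sorted cells, 229 and 464 CPM in tj-GAL4 unsorted cells, 241 and 132 CPM in eya-GAL4 sorted cells, and 1010 and 1220 CPM in eya-GAL4 unsorted cells (difference 2.98).

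The pigment gene e (ebony), which conjugates beta-alanine to dopamine, and the secreted protein gene Idgf4 of the chitinase-like growth factors also passed and were chosen after their values were seen. The gene e had 2.92 and 3.52 CPM in tj-GAL4 sorted cells, against 36.9 and 125 CPM in tj-GAL4 unsorted cells, and 11.9 and 10.5 CPM in eya-GAL4 sorted cells, against 25.6 and 13.3 CPM in eya-GAL4 unsorted cells (difference -2.68). Idgf4 had 48.3 and 47.6 CPM in tj-GAL4 sorted cells, against 92.5 and 729 CPM in tj-GAL4 unsorted cells, and 133 and 175 CPM in eya-GAL4 sorted cells, against 53.9 and 50.7 CPM in eya-GAL4 unsorted cells (difference -2.49).

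The small nuclear RNA gene snRNA:U4:39B had a difference of 6.2 with tj-GAL4 unsorted replicate 1, of -0.14 with replicate 2 in its place (adjusted p = 0.91) and of 0.89 with all 8 libraries (adjusted p = 0.81), with 2.92 and 2.32 CPM in tj-GAL4 sorted cells, 0.0744 and 6.44 CPM in tj-GAL4 unsorted cells, 0.724 and 0.485 CPM in eya-GAL4 sorted cells, and 1.8 and 0.889 CPM in eya-GAL4 unsorted cells. It is not polyadenylated as a rule and has near-identical copies, so its counts are uncertain.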
